A study of Mus musculus with 9 samples.

Results

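The genes described here are 35 genes of the actin cytoskeleton and contractile machinery, among 35771 rows of a gene table from mouse embryonic stem cells (ESCs). They were chosen by name: 3 actins, 6 filament-binding proteins of the transgelin, caldesmon and calponin families, 4 tropomyosins, 6 chains of myosin II, 3 crosslinkers, 6 focal adhesion and LIM proteins, 2 turnover factors, 2 membrane linkers, and the transcription factor Srf with its cofactors Mrtfa and Mrtfb. The choice was made with earlier results of these data known, so the shares of members called below describe a chosen list. All 35 identifiers matched a row (coordinates below are on GRCm38), and all 35 passed the filter on low counts. The cells of every group were homozygous for iMOS T1-Myc, an allele that produces mosaics of cells differing in their number of extra Myc copies, and carried RERT, which makes recombination depend on tamoxifen, on a mixed background. They were grown on gelatin with LIF. Mosaic cultures received 20 µM 4-hydroxytamoxifen for 24 h and were sorted by the fluorescence of EYFP 24 h after the drug was removed. The first group is sorted cells with 2 extra Myc and EYFP copies, called 2-copy cells below, and the second is cells without an extra copy from the mosaics, called 0-copy cells after that label. The third is sorted uninduced cultures of the same line. Cells with 1 extra copy were not analysed here. The treatment field names the drug for the uninduced samples too, so group membership follows the titles and the design text. Each group has 3 libraries, called biological replicas in the design text. The labels do not say whether these were separate cultures, so p-values measure only the spread between these samples, which may be technical.

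Actin monomers assemble into filaments, which tropomyosins coat, alpha-actinins and filamins crosslink, and non-muscle myosin II pulls on. Focal adhesions couple the filaments to integrins at the cell surface. Many of these genes are targets of serum response factor (SRF), which binds the CArG box. Its cofactors, the MRTFs, bind monomeric actin and enter the nucleus when the monomer pool falls. Pluripotent cells in culture use actomyosin tension for colony shape and adhesion.

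Library totals ran from 4165286 to 8872303 rounded expected counts. Myc, which checks the labels, had 11.5 to 14.2 scaled counts (CPM) in the uninduced libraries, 30.6 to 32.4 in 0-copy cells and 138 to 147 in 2-copy cells. The 0-copy cells, labelled as having no extra copy, thus had Myc 2.36-fold above uninduced cells (log2 1.24 ± 0.096 SE, adjusted p = 1.1e-11, edgeR), a level that their label alone does not give, and "0-copy" below means the libraries so labelled. Endogenous and transgenic Myc reads were not told apart. The 10 ESC markers were all expressed, with a sum of 3932 to 4003 CPM in uninduced libraries, 4073 to 4146 in 0-copy cells and 3796 to 3992 in 2-copy cells. Of these markers 4 (Pou5f1, Nanog, Sox2 and Klf4) were lower in 2-copy than in 0-copy cells and 0 higher, where 7.70% of all genes tested were lower and 8.30% higher. In 0-copy against uninduced cells 4 were higher and 2 lower, where 7.10% of all genes were higher and 6.39% lower. Replicate 1 of the 2-copy cells stood apart: the chi-square per degree of freedom against its fellow replicates was 2.55 and 2.89, against 1.36 to 1.78 in the other pairs. The correlation of expression deviation with transcript length was 0.063 to 0.160 in the uninduced libraries and -0.163 to 0.022 in 2-copy cells, where the deviation is that of a gene's log2 level from its mean over all libraries. The members' median exonic length was 3290 bases, against 4387 for all genes tested.

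Within the mosaic, 2-copy cells had lower levels of most contractile genes than 0-copy cells. Of the 35 members, 22 fell and 0 rose at an adjusted p below 0.05 in the edgeR test, and 17 fell with DESeq2. None rose at an unadjusted p below 0.05 or with DESeq2 or voom. DESeq2 called 418 of all genes lower and 643 higher. With edgeR, 16.0% of all 13424 genes tested were called, 7.70% lower and 8.30% higher. The median log2 change of the members was -0.26, against -0.012 for all genes. The 22 falls ran from 1.10-fold (Myl12a) to 2.37-fold (Myl9). Among the larger were those of Acta2, Tagln, Cald1 and Cnn2, by 1.47 to 2.21 times. Without scaling by TMM the same comparison called 774 of all genes higher and 1360 lower, against 1114 and 1034 with it, and the members that fell numbered 25. The libraries of the groups did not overlap for 22 of the 35 members, against 30.6% of all genes.

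The 0-copy cells stood above uninduced cells for most of these genes. In that comparison 21 members rose and 1, Ezr, fell, where 13.5% of all genes were called, 7.10% higher and 6.39% lower. The median log2 change was 0.18 for the members and 0.0022 for all genes. Groups did not overlap for 26 members, against 31.5% of all genes. This comparison and the preceding one share the 0-copy libraries, so a level that is high there enters both. Without replicate 2 of the 0-copy cells, the members that rose numbered 14, and with DESeq2 15. Of all genes, 622 were higher in the first of these fits and 399 in the second, against 953 in the main fit. The members' median log2 change was 0.16 and 0.19 in these fits.

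Between 2-copy and uninduced cells the calls went in both directions. In 2-copy cells 6 members rose (Acta2, Tagln, Tagln2, Tpm1, Cfl1 and Srf) and 9 fell (Cnn2, Myl9, Myl12b, Myh9, Actn4, Flna, Zyx, Tln1 and Ezr). Of all genes, 25.0% were called, 12.8% higher and 12.1% lower. The median log2 change of the members was -0.031, against -0.014 for all genes. Groups did not overlap for 18 members, against 38.5% of all genes. These counts depended on the test and on the libraries: DESeq2 gave 3 that rose and 4 that fell, and the fit without uninduced replicate 1 gave 2 and 5. The calls over all genes fell as well, to 1088 higher and 801 lower with DESeq2 and 1306 and 1205 without that replicate. Without replicate 1 of the 2-copy cells, which stood apart, 6 members rose and 6 fell here, and 21 fell against 0-copy cells. Of all genes, 2004 were higher and 1715 lower here in that fit, and 1098 were lower against 0-copy cells. Without TMM scaling 1494 of all genes were higher and 1848 lower, against 1721 and 1629 with it.

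**Figure D1:**
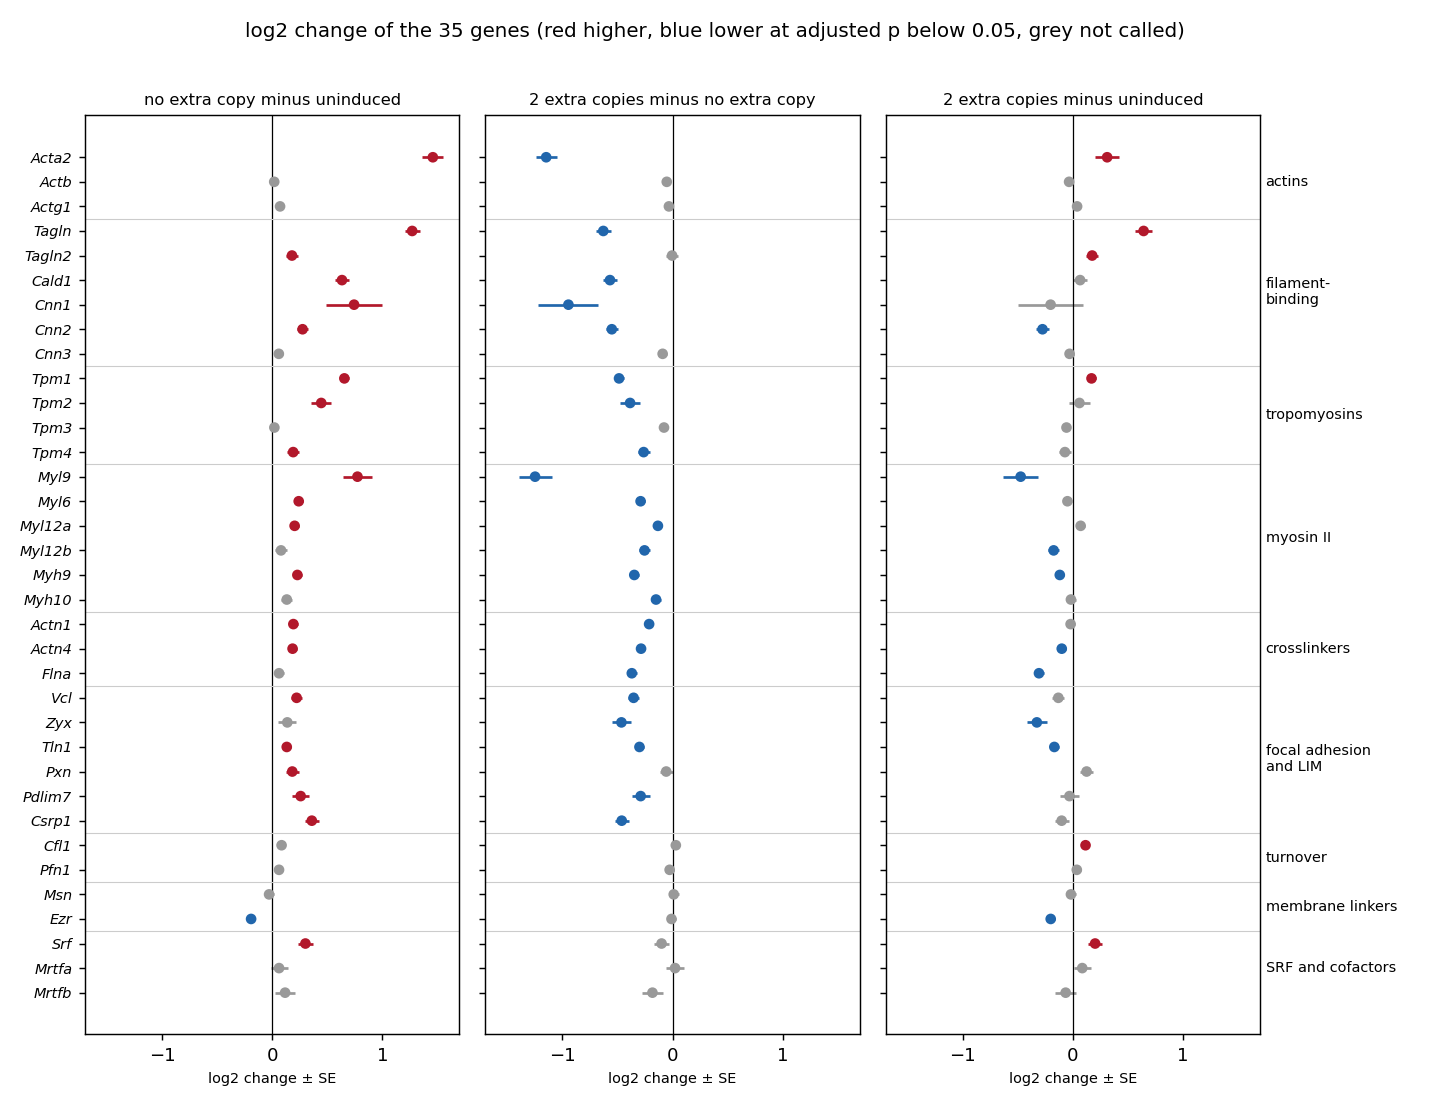
The log2 change of each of the 35 members, grouped by role, in the 3 comparisons, with bars of 1 standard error; red marks genes called higher, blue lower and grey not called. In 2-copy against 0-copy cells, 22 members are called lower and 0 higher.

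The group mean in CPM was highest in 0-copy cells for 30 members, in 2-copy cells for 3 and in uninduced cells for 2. This count was not made over all genes, and it restates the comparisons above, which share the 0-copy libraries. Together the members took 1.08% to 1.09% of counts in uninduced libraries, 1.17% to 1.20% in 0-copy cells and 1.03% to 1.07% in 2-copy cells. In bulk RNA, fewer cells of a type and less RNA per cell cannot be told apart. Markers of other cells moved with the groups. The summed level of 11 fibroblast markers was 35.9 to 37.6 CPM in uninduced libraries, 79.4 to 87.5 in 0-copy cells and 53.0 to 59.3 in 2-copy cells, and Lum, Dcn, Postn and Prrx1 had a mean below 1 CPM. The collagens Col1a1 (means of 9.07, 25.4 and 16.0 CPM in that order of groups) and Col1a2 (9.99, 36.4 and 20.0) made most of this difference. Col3a1 went in another order (2.45, 4.32 and 5.45), highest in 2-copy cells. It was called higher in both mosaic populations than in uninduced cells, and not called within the mosaic. Thy1, Twist1, Pdgfra and Pdgfrb were not called. The 9 cardiac and skeletal muscle markers summed to 34.2 to 38.5, 47.6 to 57.4 and 27.3 to 30.7 CPM in the same order of groups, with Tnnt2, Myl7, Nkx2-5 and Myod1 below 1 as a mean over all 9 libraries and the sarcomeric actins Acta1 and Actc1 among them. The 8 trophectoderm markers summed to 150.3 to 163, 218 to 244 and 190.2 to 206 CPM. Of these Cdx2, Elf5 and Gata3 were below 1 as a mean over all 9 libraries. The keratins Krt8 (means of 23.0, 62.5 and 42.8 CPM) and Krt18 (13.2, 39.3 and 26.6) made most of that difference, and Tfap2c, the most abundant of the list, was not called. The 9 markers of extraembryonic endoderm summed to 68.4 to 71.6, 66.5 to 85.7 and 49.3 to 61.0 CPM, lowest in 2-copy cells, where Dab2 and Lama1 were called lower against both other groups. Of that list Sox17, Gata6, Foxa2, Sox7 and Afp had a mean below 1 over all 9 libraries. The sum of the 8 smooth muscle markers overlapped between the groups, at 72.2 to 73.8, 72.4 to 81.4 and 70.4 to 75.7 CPM, with Myh11, Actg2, Mylk and Myocd below 1 as a mean over all 9. Smtn (means of 51.8, 49.2 and 52.6 CPM) and Des (16.7, 18.8 and 16.1) made most of this sum. Of the 3 tested only Synpo2 was called, higher in 0-copy than in uninduced cells (log2 1.01, adjusted p = 0.01, edgeR). Myh11, not tested, had means of 0.23, 0.87 and 0.22 CPM. The sum of the 6 markers of endothelium and blood overlapped too, at 57.9 to 62.1, 60.4 to 67.8 and 53.1 to 64.0 CPM. Pecam1 (means of 57.0, 59.6 and 54.5 CPM) made most of it, and Cdh5, Ptprc and Hbb-bh1 had a mean below 1 over all 9 libraries. The part of these cells in the members' differences was not tested.

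Levels between genes are compared per kilobase of exon. The cytoplasmic actins Actb and Actg1 stood at the top, with 959 ± 10.7 and 422 ± 12.6 CPM per kb in uninduced cells (mean ± SD, n = 3). The turnover factors Cfl1 and Pfn1 followed, at 343 ± 9.17 and 301 ± 14.8. At the lower end of the named members were Cald1, at 5.05 ± 0.26, and Mrtfb, at 2.82 ± 0.11 CPM per kb. Cnn1 had only 13 to 39 counts per library, Myl9 36 to 148 and Acta2 113 to 498, which limits the precision of their changes.

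**Figure D2:**
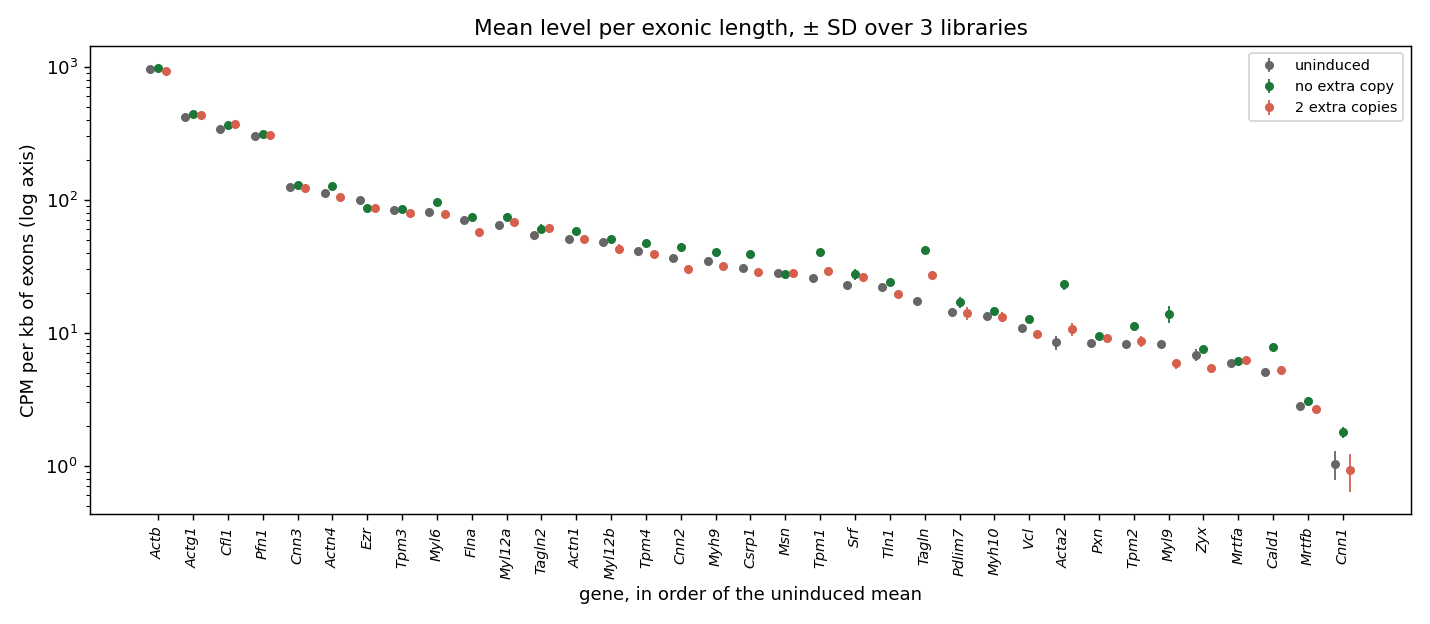
Mean level of each member in CPM per kb of exon on a log axis, per group, with bars of 1 SD over 3 libraries; genes are in order of the uninduced mean. Actb is at 959 ± 10.7 CPM per kb in uninduced cells and Mrtfb at 2.82 ± 0.11.

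The promoters of these genes were read because SRF acts through the CArG box. RefSeq (GRCm38.p6) windows of the 250 bases before the start were read for 32 of the 35 members (all but Actb, Tagln and Pxn). A CArG box was read strictly, as CC, then 6 bases of A or T, then GG, so near matches were not counted. The Acta2 window, for instance, held the near matches ccctatatgg and ccttgtttgg. A strict box on either strand was present in 6 of the 32 (18.75%), against 1.62% of 27025 genes. The list was built around actin genes and SRF, so this share is a description of a chosen list. CACGTG, the E-box bound by Myc and its partner Max, was in 3 of the 32 (9.375%: Actg1, Msn and Myl12a), against 6.86% of genes, and overlapped no CArG box. The 4 windows below show Srf itself, 2 members that were lower in 2-copy cells (Myl9 and Cnn2), and Actg1, which holds a box and was not called in any comparison. Capitals mark the CArG boxes. The windows are chr17:46556163-46556412 (minus strand), chr2:156775214-156775463 (plus strand), chr10:79988350-79988599 (plus strand) and chr11:120348496-120348745 (minus strand).
Srf: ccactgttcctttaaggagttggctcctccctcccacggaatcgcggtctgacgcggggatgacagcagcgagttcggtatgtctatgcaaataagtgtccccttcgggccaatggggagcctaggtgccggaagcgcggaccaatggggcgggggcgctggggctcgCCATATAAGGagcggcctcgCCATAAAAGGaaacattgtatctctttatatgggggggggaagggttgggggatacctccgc
Myl9: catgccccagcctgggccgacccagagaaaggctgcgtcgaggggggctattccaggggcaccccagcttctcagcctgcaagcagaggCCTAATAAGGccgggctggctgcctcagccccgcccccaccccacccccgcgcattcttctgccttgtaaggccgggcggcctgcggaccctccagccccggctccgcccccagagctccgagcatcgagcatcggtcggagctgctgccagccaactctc
Cnn2: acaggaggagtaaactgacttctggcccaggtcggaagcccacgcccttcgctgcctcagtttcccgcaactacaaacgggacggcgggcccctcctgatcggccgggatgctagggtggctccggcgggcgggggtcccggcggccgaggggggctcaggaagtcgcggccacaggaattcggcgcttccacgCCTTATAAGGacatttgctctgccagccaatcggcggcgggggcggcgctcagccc
Actg1: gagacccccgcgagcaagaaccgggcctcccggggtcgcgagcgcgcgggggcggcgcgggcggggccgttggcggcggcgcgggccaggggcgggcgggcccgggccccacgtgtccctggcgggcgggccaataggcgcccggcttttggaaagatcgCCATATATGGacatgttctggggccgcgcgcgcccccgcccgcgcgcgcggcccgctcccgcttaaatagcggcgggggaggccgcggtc
The boxes begin 82 and 62 bases before the start in Srf, 161 in Myl9, 56 in Cnn2 and 90 in Actg1. The other members with a strict box were Myl6, at 50 bases, and Vcl, at 227. A match describes letters in this window and no binding was measured.

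Srf (ENSMUSG00000015605, chr17:46548329-46556175), the transcription factor itself, was higher in both mosaic populations than in uninduced cells. Its levels were 66.1, 67.2 and 64.2 in the uninduced libraries, 76.2, 89.0 and 75.0 in 0-copy cells, and 72.6, 71.7 and 82.1 CPM in 2-copy cells. The uninduced libraries lay below all others, and the mosaic groups overlapped. Against uninduced cells it rose 1.23-fold in 0-copy cells (log2 0.30 ± 0.066 SE, adjusted p = 0.00163) and 1.15-fold in 2-copy cells (log2 0.20 ± 0.067 SE, adjusted p = 0.0252). The first of these calls was lost without replicate 2 of the 0-copy cells (adjusted p = 0.0807, and 9.58e-05 to 0.0807 over all alternatives), and the second with DESeq2 (adjusted p = 0.106, and 0.00927 to 0.211 over all alternatives), with voom, or without uninduced replicates 1 or 2 or 3 or 2-copy replicate 3. Between the mosaic groups it was not called (log2 -0.10 ± 0.066 SE, adjusted p = 0.344).

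The SRF cofactors were not called in any comparison. Mrtfa (ENSMUSG00000042292, chr15:81012281-81190757), which senses monomeric actin, had levels of 37.3, 34.4 and 36.5 in the uninduced libraries, 35.2, 39.1 and 38.1 in 0-copy cells, and 38.7, 37.0 and 38.7 CPM in 2-copy cells. All 3 groups overlapped, and the comparison within the mosaic gave log2 0.023 ± 0.079 SE, adjusted p = 0.9. Mrtfb (ENSMUSG00000009569, chr16:13256481-13417529), its paralog, had 25.7, 24.2 and 26.0 in the uninduced libraries, 26.0, 27.9 and 28.3 in 0-copy cells, and 25.6, 23.3 and 23.6 CPM in 2-copy cells. The 2-copy cells lay below 0-copy cells without overlap, and the difference did not pass the test (log2 -0.18 ± 0.094 SE, adjusted p = 0.201).

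Among the actins, Acta2 differed between the groups and the cytoplasmic pair was not called. Acta2 (ENSMUSG00000035783, chr19:34241090-34255590) encodes smooth muscle alpha-actin, a widely used marker of contractile cells. Its levels were 17.3, 21.0 and 17.4 in the uninduced libraries, 49.1, 55.6 and 47.4 in 0-copy cells, and 22.1, 26.2 and 21.6 CPM in 2-copy cells. The 0-copy libraries lay above all others. Acta2 was 2.21-fold lower in 2-copy than in 0-copy cells (log2 -1.15 ± 0.094 SE, adjusted p = 2.51e-10) and 2.75-fold higher in 0-copy than in uninduced cells (log2 1.46 ± 0.095 SE, adjusted p = 2.25e-13). The rise of 1.24-fold in 2-copy cells over uninduced cells (log2 0.31 ± 0.11 SE, adjusted p = 0.0355) was lost with DESeq2 (adjusted p = 0.109, and 0.013 to 0.203 over all alternatives), without TMM scaling, with voom, with an offset for transcript length, or without uninduced replicates 1 or 3 or 2-copy replicate 2.

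Actb (ENSMUSG00000029580, chr5:142903115-142906754), the beta-actin of the cell cortex and stress fibres, had levels of 2537, 2580.0 and 2592 in the uninduced libraries, 2553, 2590.1 and 2666 in 0-copy cells, and 2402, 2577 and 2549.9 CPM in 2-copy cells. The groups overlapped, and within the mosaic the test gave log2 -0.052 ± 0.031 SE, adjusted p = 0.276. Without TMM scaling Actb was called lower (adjusted p = 0.0279, and 0.0279 to 0.941 over all alternatives). Actg1 (ENSMUSG00000062825, chr11:120345690-120348542), the gamma-actin, had 1084, 1130.2 and 1149 in the uninduced libraries, 1156, 1189.9 and 1187 in 0-copy cells, and 1112, 1179.5 and 1163 CPM in 2-copy cells. Uninduced libraries lay below 0-copy cells by a margin that did not pass the test (log2 0.071 ± 0.033 SE, adjusted p = 0.165). Per length, Acta2 made up 0.607% ± 0.067 of the CPM per kb of 6 actins in uninduced cells, 1.59% ± 0.14 in 0-copy cells and 0.766% ± 0.070 in 2-copy cells (mean ± SD, n = 3, with no test).

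The filament-binding proteins held several of the larger changes: 4 of 6 fell within the mosaic, and 5 of 6 rose in 0-copy cells over uninduced cells. Of all genes, 7.70% fell in the first of these comparisons and 7.10% rose in the second. Tagln (ENSMUSG00000032085, chr9:45929619-45936058), or SM22-alpha, binds actin filaments and is an early smooth muscle marker. It had levels of 32.9, 34.4 and 36.3 in the uninduced libraries, 78.9, 86.0 and 84.5 in 0-copy cells, and 49.1, 56.0 and 56.2 CPM in 2-copy cells. The 3 groups did not overlap, with uninduced cells lowest and 0-copy cells highest. Tagln was 1.55-fold lower in 2-copy than in 0-copy cells (log2 -0.63 ± 0.066 SE, adjusted p = 2.82e-08). Against uninduced cells it was 2.41-fold higher in 0-copy cells (log2 1.27 ± 0.069 SE, adjusted p = 8.49e-15) and 1.56-fold higher in 2-copy cells (log2 0.64 ± 0.075 SE, adjusted p = 6.45e-08).

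Cald1 (ENSMUSG00000029761, chr6:34598500-34775473), caldesmon, restrains the myosin ATPase on actin filaments. Across the libraries it had 57.5, 63.6 and 61.1 in the uninduced libraries, 101, 94.3 and 86.0 in 0-copy cells, and 62.1, 64.3 and 64.5 CPM in 2-copy cells. The 0-copy cells stood apart from both other groups, which overlapped. Cald1 was 1.48-fold lower in 2-copy than in 0-copy cells (log2 -0.57 ± 0.062 SE, adjusted p = 6.44e-08) and 1.55-fold higher in 0-copy than in uninduced cells (log2 0.63 ± 0.061 SE, adjusted p = 1.95e-09). Between 2-copy cells and uninduced cells the test gave log2 0.066 ± 0.065 SE, adjusted p = 0.501.

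Cnn2 (ENSMUSG00000004665, chr10:79988584-79996062), a calponin of non-muscle cells that binds actin, had 87.7, 92.0 and 89.3 in the uninduced libraries, 102, 108 and 118 in 0-copy cells, and 72.6, 72.5 and 76.9 CPM in 2-copy cells. No groups overlapped, and from low to high the order was 2-copy, uninduced, 0-copy. It was 1.47-fold lower in 2-copy than in 0-copy cells (log2 -0.55 ± 0.057 SE, adjusted p = 2.13e-08) and 1.21-fold lower than in uninduced cells (log2 -0.28 ± 0.057 SE, adjusted p = 0.000462). The 0-copy cells were 1.21-fold above uninduced cells (log2 0.28 ± 0.054 SE, adjusted p = 0.000427). Among the calponins per length, Cnn2 made up 22.5% ± 0.45, 25.2% ± 1.28 and 19.7% ± 0.52 in uninduced, 0-copy and 2-copy cells (mean ± SD, n = 3, with no test). Cnn1, the smooth muscle calponin, was 1.93-fold lower in 2-copy than in 0-copy cells (log2 -0.95 ± 0.27 SE, adjusted p = 0.0148) on few counts, a call lost with DESeq2 (adjusted p = 0.111, and 0.00866 to 0.114 over all alternatives) or without 2-copy replicate 3 or 0-copy replicate 1. Its rise in 0-copy over uninduced cells (log2 0.74 ± 0.26 SE, adjusted p = 0.0488) was lost with upper-quartile factors, with voom, with no filter on low counts, with a block on replicate numbers, or with an offset for transcript length. That call was also lost without uninduced replicates 1 or 3 or 0-copy replicates 1 or 2 or 3 (adjusted p = 0.0354 to 0.184 over the alternatives that gave one). DESeq2 gave no adjusted p for it. Cnn3 was not called, and 12.0% of its 75-base stretches also occur in Gm42928, while 17.7% of its exonic bases lie opposite another gene. Tagln2, a transgelin of non-muscle cells, rose 1.13-fold in 0-copy cells (log2 0.18 ± 0.052 SE, adjusted p = 0.0166) and 1.13-fold in 2-copy cells (log2 0.18 ± 0.052 SE, adjusted p = 0.0117) over uninduced cells. The first call was lost with DESeq2 (adjusted p = 0.126, and 0.00635 to 0.281 over all alternatives) or without uninduced replicates 1 or 2 or 0-copy replicate 2, and the second with DESeq2 (adjusted p = 0.0574, and 0.00738 to 0.0835 over all alternatives) or without uninduced replicate 1.

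**Figure D3:**
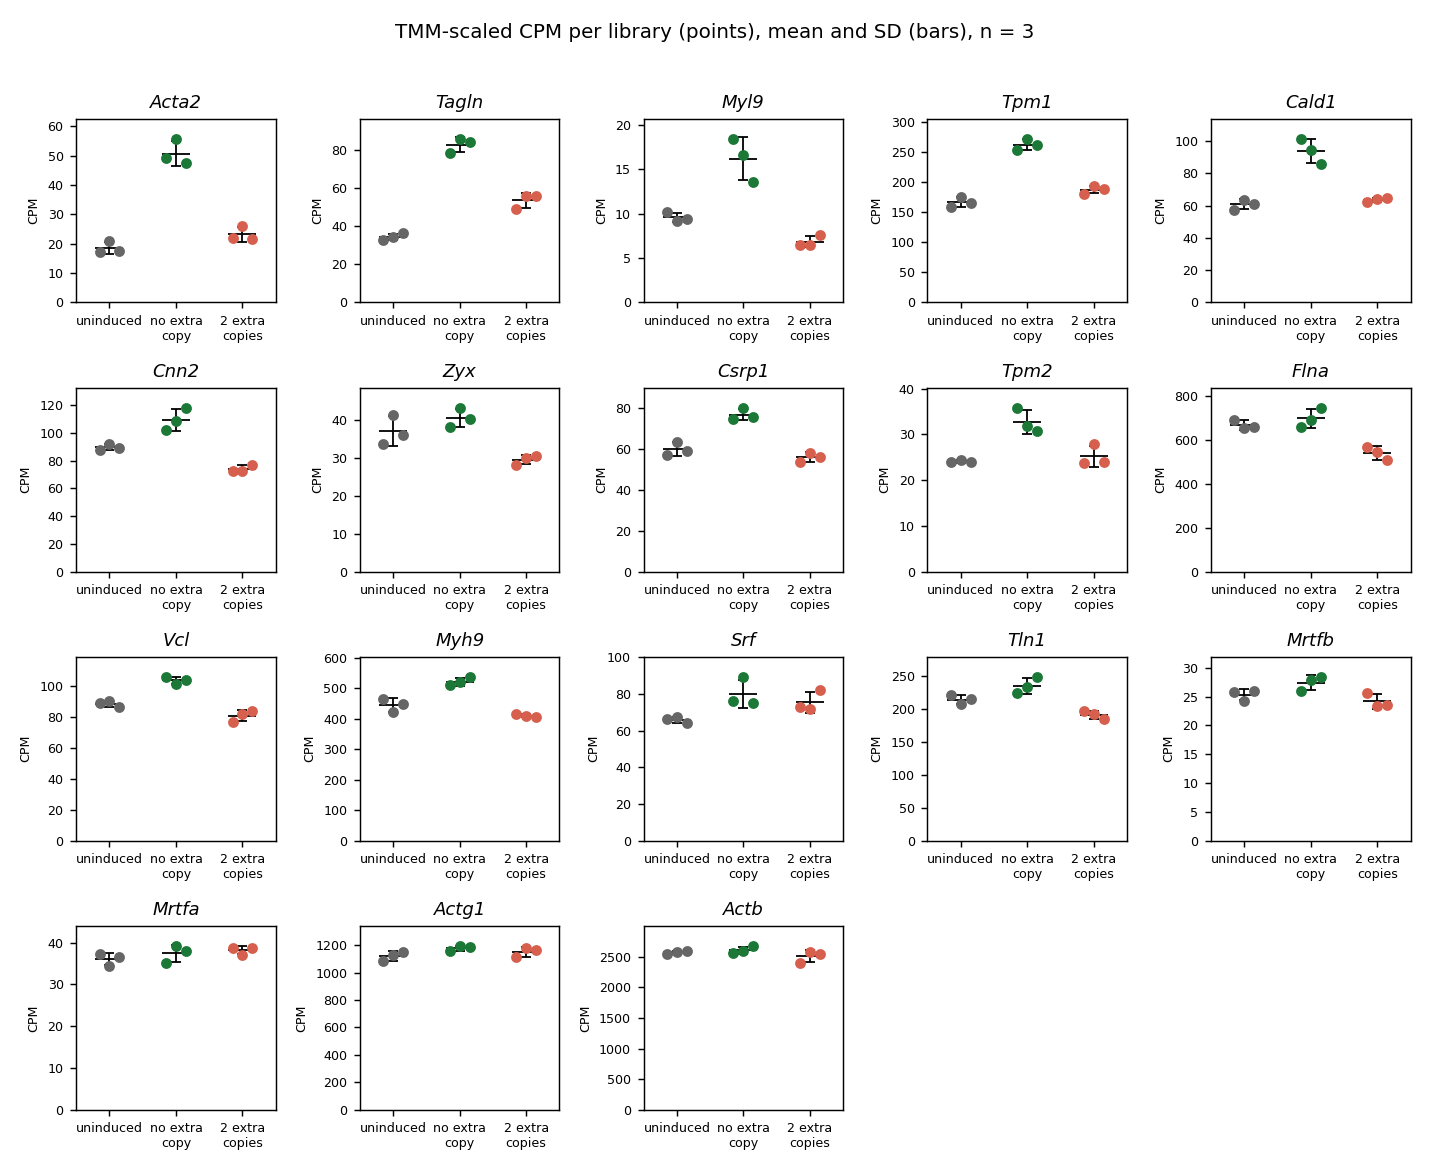
CPM in each of the 9 libraries for the 18 members with values by library, as points by group, with a line at each group mean and bars of 1 SD. Acta2 in the 0-copy libraries sits between 47.4 and 55.6 CPM, above all 6 other libraries.

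Tropomyosins run along the actin filament and set which myosins and severing factors can reach it. Within the mosaic 3 of 4 fell, and 3 rose in 0-copy cells over uninduced cells, against 7.70% and 7.10% of all genes. Tpm1 (ENSMUSG00000032366, chr9:67022590-67049406) had levels of 159, 176 and 165 in the uninduced libraries, 254, 272 and 262 in 0-copy cells, and 181, 194 and 189 CPM in 2-copy cells. The 3 groups did not overlap. It was 1.40-fold lower in 2-copy than in 0-copy cells (log2 -0.49 ± 0.044 SE, adjusted p = 1.23e-09), 1.57-fold higher in 0-copy than in uninduced cells (log2 0.66 ± 0.043 SE, adjusted p = 3.17e-13) and 1.12-fold higher in 2-copy than in uninduced cells (log2 0.17 ± 0.045 SE, adjusted p = 0.0047).

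Tpm2 (ENSMUSG00000028464, chr4:43514711-43523765), the beta-tropomyosin, had 23.9, 24.4 and 23.9 in the uninduced libraries, 35.7, 31.8 and 30.7 in 0-copy cells, and 23.7, 27.8 and 24.0 CPM in 2-copy cells. Only 0-copy cells stood apart. It was 1.31-fold lower in 2-copy than in 0-copy cells (log2 -0.39 ± 0.094 SE, adjusted p = 0.00386), a call lost with DESeq2 (adjusted p = 0.0564, and 0.0019 to 0.0564 over all alternatives), and 1.36-fold higher in 0-copy than in uninduced cells (log2 0.45 ± 0.091 SE, adjusted p = 0.000753). Tpm4 was 1.20-fold lower within the mosaic (log2 -0.26 ± 0.055 SE, adjusted p = 0.000858) and 1.14-fold higher in 0-copy than in uninduced cells (log2 0.19 ± 0.053 SE, adjusted p = 0.0126), the latter lost with DESeq2 (adjusted p = 0.114, and 0.00637 to 0.114 over all alternatives) or without uninduced replicate 3 or 0-copy replicate 2. Tpm3, which shares 19.1% of its 75-base stretches with Tpm3-rs7, was not called. Of the CPM per kb of the 4 tropomyosins, Tpm1 held 16.2% ± 0.71 in uninduced cells, 22.1% ± 0.62 in 0-copy cells and 18.4% ± 0.34 in 2-copy cells. Tpm3 held 52.6% ± 0.67, 46.2% ± 0.61 and 51.1% ± 1.15 in the same order (mean ± SD, n = 3, with no test).

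**Figure D4:**
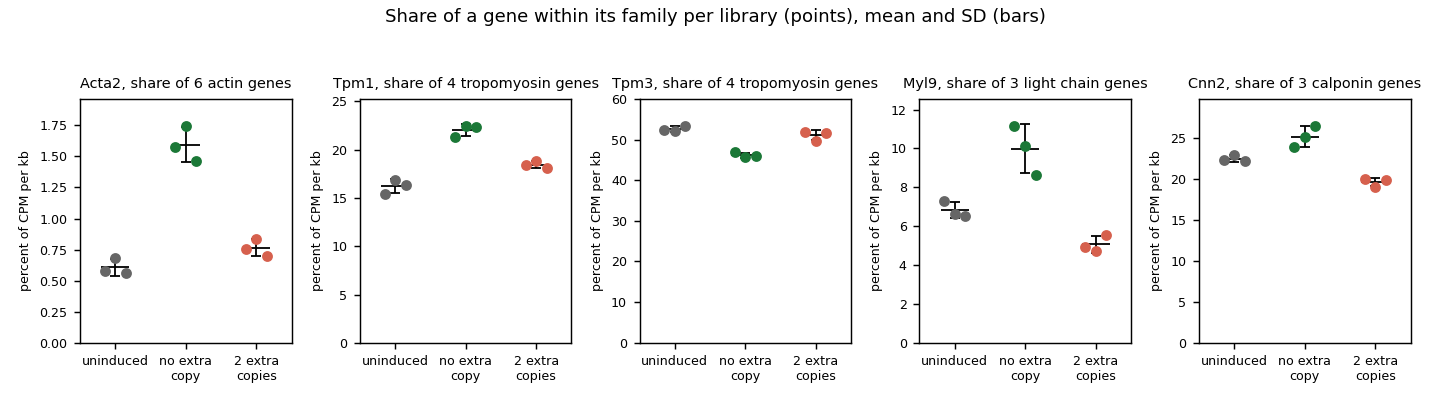
Share of Acta2, Tpm1, Tpm3, Myl9 and Cnn2 in the summed CPM per kb of their families, in percent, with points for libraries, a line at each group mean and bars of 1 SD over 3 libraries. Tpm1 holds 16.2%, 22.1% and 18.4% of the tropomyosins in uninduced cells, in 0-copy cells and in 2-copy cells.

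Myosin II consists of heavy chains, which carry the motor, and regulatory and essential light chains. All 6 members of the group fell in 2-copy against 0-copy cells, where 7.70% of all genes fell. Myl9 (ENSMUSG00000067818, chr2:156775420-156781658), the regulatory light chain of smooth muscle and stress fibres, had levels of 10.1, 9.20 and 9.39 in the uninduced libraries, 18.4, 16.5 and 13.6 in 0-copy cells, and 6.49, 6.50 and 7.53 CPM in 2-copy cells. No groups overlapped, and 2-copy cells were lowest. Myl9 was 2.37-fold lower in 2-copy than in 0-copy cells (log2 -1.25 ± 0.15 SE, adjusted p = 3.19e-07) and 1.71-fold higher in 0-copy than in uninduced cells (log2 0.77 ± 0.14 SE, adjusted p = 9.75e-05). Its fall of 1.39-fold from uninduced cells to 2-copy cells (log2 -0.47 ± 0.16 SE, adjusted p = 0.0283) was lost with DESeq2 (adjusted p = 0.155, and 0.0108 to 0.155 over all alternatives) or without uninduced replicate 1 or 2-copy replicates 1 or 2. Of the 3 regulatory light chains per length, Myl9 made up 6.81% ± 0.41 in uninduced cells, 9.99% ± 1.26 in 0-copy cells and 5.06% ± 0.42 in 2-copy cells.

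Myh9 (ENSMUSG00000022443, chr15:77760587-77842175), the heavy chain of non-muscle myosin IIA, had 466, 421 and 448 in the uninduced libraries, 509, 520.1 and 536 in 0-copy cells, and 415, 409 and 405 CPM in 2-copy cells. The 0-copy libraries were the highest and 2-copy cells the lowest. It was 1.27-fold lower in 2-copy than in 0-copy cells (log2 -0.35 ± 0.038 SE, adjusted p = 7.8e-08) and 1.17-fold higher in 0-copy than in uninduced cells (log2 0.23 ± 0.038 SE, adjusted p = 4.7e-05). The fall of 1.09-fold below uninduced cells (log2 -0.12 ± 0.038 SE, adjusted p = 0.0209) turned direction, to a log2 of 0.0064, with an offset for transcript length. That call was lost with DESeq2 (adjusted p = 0.0935, and 0.00616 to 0.935 over all alternatives), with an offset for transcript length, with only the 2 groups fitted, or without uninduced replicates 1 or 3 or 2-copy replicates 2 or 3. Its paralog Myh10 was 1.11-fold lower within the mosaic (log2 -0.15 ± 0.05 SE, adjusted p = 0.0346), with overlapping libraries, and the call was lost with DESeq2 (adjusted p = 0.199, and 0.00393 to 0.227 over all alternatives), with voom, with an offset for transcript length, or without 2-copy replicates 2 or 3 or 0-copy replicates 1 or 2 or 3.

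The other light chains also fell within the mosaic. Myl6, the essential light chain, was 1.22-fold lower (log2 -0.29 ± 0.043 SE, adjusted p = 1.08e-05), and it was 1.18-fold higher in 0-copy than in uninduced cells (log2 0.24 ± 0.042 SE, adjusted p = 0.000109). Myl12a was 1.10-fold lower within the mosaic (log2 -0.13 ± 0.041 SE, adjusted p = 0.0223), a call lost with DESeq2 (adjusted p = 0.141, and 0.0031 to 0.141 over all alternatives), with no filter on low counts, or without 2-copy replicates 2 or 3 or 0-copy replicates 2 or 3, and 1.15-fold higher in 0-copy than in uninduced cells (log2 0.20 ± 0.04 SE, adjusted p = 0.000511). Myl12b was 1.19-fold lower in 2-copy than in 0-copy cells (log2 -0.25 ± 0.053 SE, adjusted p = 0.000854) and 1.13-fold lower than in uninduced cells (log2 -0.17 ± 0.052 SE, adjusted p = 0.0128), the latter lost with DESeq2 (adjusted p = 0.101, and 0.00273 to 0.12 over all alternatives) or without uninduced replicate 1 or 2-copy replicates 1 or 3. Myl12a and Myl12b are neighbours that share some 75-base stretches (5.78% and 2.38% of theirs), so reads between them are uncertain.

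All 3 crosslinkers fell within the mosaic, where 7.70% of all genes fell. Flna (ENSMUSG00000031328, chrX:74223461-74249820), filamin A, joins filaments into networks and links them to membrane receptors. It had 692, 652 and 657 in the uninduced libraries, 659.9, 688 and 743 in 0-copy cells, and 567, 544 and 506 CPM in 2-copy cells. The 2-copy cells lay below both other groups, which overlapped. Flna was 1.29-fold lower in 2-copy than in 0-copy cells (log2 -0.37 ± 0.044 SE, adjusted p = 3.24e-06) and 1.24-fold lower than in uninduced cells (log2 -0.31 ± 0.044 SE, adjusted p = 1.45e-05). The alpha-actinins Actn1 and Actn4 were 1.16-fold (log2 -0.21 ± 0.039 SE, adjusted p = 0.000165) and 1.22-fold (log2 -0.29 ± 0.036 SE, adjusted p = 7.45e-07) lower within the mosaic. Both rose in 0-copy cells over uninduced cells, Actn1 1.14-fold (log2 0.19 ± 0.038 SE, adjusted p = 0.000496) and Actn4 1.14-fold (log2 0.18 ± 0.036 SE, adjusted p = 0.000366). Actn4 was also 1.07-fold lower in 2-copy than in uninduced cells (log2 -0.10 ± 0.036 SE, adjusted p = 0.0366), a call lost with DESeq2 (adjusted p = 0.138, and 0.00844 to 0.24 over all alternatives), with RLE factors, with no filter on low counts, with an offset for transcript length, with only the 2 groups fitted, or without uninduced replicates 1 or 3 or 2-copy replicates 1 or 3.

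Of the 6 focal adhesion and LIM proteins, 5 fell within the mosaic, where 7.70% of all genes fell. Csrp1 (ENSMUSG00000026421, chr1:135720061-135752232), a LIM protein of stress fibres, had 57.2, 63.6 and 59.1 in the uninduced libraries, 74.6, 79.9 and 75.7 in 0-copy cells, and 53.6, 58.2 and 56.2 CPM in 2-copy cells. The 0-copy cells were above all others. It was 1.38-fold lower in 2-copy than in 0-copy cells (log2 -0.46 ± 0.064 SE, adjusted p = 3.62e-06) and 1.28-fold higher in 0-copy than in uninduced cells (log2 0.36 ± 0.061 SE, adjusted p = 6.7e-05).

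Zyx (ENSMUSG00000029860, chr6:42349630-42360213), zyxin, gathers at focal adhesions and stress fibres under tension. Its values were 33.6, 41.3 and 36.0 in the uninduced libraries, 38.2, 43.1 and 40.2 in 0-copy cells, and 28.2, 30.0 and 30.4 CPM in 2-copy cells. The 2-copy cells were lowest, and the other groups overlapped. Zyx was 1.38-fold lower in 2-copy than in 0-copy cells (log2 -0.46 ± 0.089 SE, adjusted p = 0.000306) and 1.25-fold lower than in uninduced cells (log2 -0.33 ± 0.088 SE, adjusted p = 0.00559), the latter a call lost with DESeq2 (adjusted p = 0.0597, and 0.00257 to 0.0828 over all alternatives) or without uninduced replicate 2.

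Vcl (ENSMUSG00000021823, chr14:20929398-21033676), vinculin, ties talin to actin at adhesions. It had 89.0, 90.2 and 86.5 in the uninduced libraries, 106, 101 and 104 in 0-copy cells, and 76.6, 82.0 and 83.7 CPM in 2-copy cells. No groups overlapped. Vcl was 1.28-fold lower in 2-copy than in 0-copy cells (log2 -0.35 ± 0.054 SE, adjusted p = 1.39e-05) and 1.17-fold higher in 0-copy than in uninduced cells (log2 0.22 ± 0.051 SE, adjusted p = 0.00271). These values are uncertain, since 25.5% of its exonic bases lie opposite another gene, 24.9% of its 75-base stretches occur in Ap3m1, and whether counting used strand is not stated.

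Tln1 (ENSMUSG00000028465, chr4:43531519-43562691), talin 1, activates integrins and carries force from them to actin. It had 221, 208 and 216 in the uninduced libraries, 225, 234 and 249 in 0-copy cells, and 197, 192 and 185 CPM in 2-copy cells. The 2-copy cells lay below both other groups. Tln1 was 1.23-fold lower in 2-copy than in 0-copy cells (log2 -0.30 ± 0.044 SE, adjusted p = 7.3e-06). It was also 1.12-fold lower than in uninduced cells (log2 -0.17 ± 0.043 SE, adjusted p = 0.0038), a call lost with the offset for transcript length (adjusted p = 0.11, and 0.00141 to 0.11 over all alternatives). Its rise of 1.10-fold in 0-copy cells (log2 0.13 ± 0.042 SE, adjusted p = 0.0327) was lost with DESeq2 (adjusted p = 0.144, and 0.0025 to 0.198 over all alternatives), with upper-quartile factors, with voom, with no filter on low counts, or without uninduced replicates 2 or 3 or 0-copy replicates 2 or 3.

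Pdlim7, a PDZ and LIM adaptor, was 1.22-fold lower within the mosaic (log2 -0.29 ± 0.082 SE, adjusted p = 0.022) and 1.20-fold higher in 0-copy than in uninduced cells (log2 0.26 ± 0.08 SE, adjusted p = 0.0383). The first was lost with DESeq2 (adjusted p = 0.0601, and 0.000256 to 0.151 over all alternatives) or without 2-copy replicates 1 or 3 or 0-copy replicates 2 or 3. The second was lost with DESeq2 (adjusted p = 0.0988, and 0.00128 to 0.257 over all alternatives) or without uninduced replicates 1 or 2 or 2-copy replicate 3 or 0-copy replicates 2 or 3. Paxillin, Pxn, rose 1.13-fold in 0-copy cells over uninduced cells (log2 0.18 ± 0.059 SE, adjusted p = 0.0338), also a call lost with DESeq2 (adjusted p = 0.207, and 0.00978 to 0.207 over all alternatives), with no filter on low counts, or without uninduced replicates 1 or 2 or 0-copy replicates 2 or 3.

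The turnover factors and membrane linkers were not called within the mosaic. Cfl1, cofilin, which severs filaments, was 1.08-fold higher in 2-copy than in uninduced cells (log2 0.12 ± 0.035 SE, adjusted p = 0.014), a call lost without uninduced replicate 1 or 2-copy replicate 3 (adjusted p = 0.000188 to 0.114 over all alternatives). It shares 11.1% of its 75-base stretches with Snx32, and 16.5% of its exonic bases lie opposite another gene, so this small change is uncertain. Pfn1, profilin, which loads monomers onto growing ends, was not called, and neither was Msn, moesin. Ezr, ezrin, which links filaments to the membrane, was lower than in uninduced cells in both mosaic populations, 1.14-fold in 0-copy cells (log2 -0.19 ± 0.039 SE, adjusted p = 0.000626) and 1.15-fold in 2-copy cells (log2 -0.20 ± 0.039 SE, adjusted p = 0.000184).

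Lists with 100 other actin genes, of which 96 were tested, were read beside the members. Within the mosaic 29 fell and 2 rose, where 7.70% of all genes were lower and 8.30% higher, with a median log2 change of -0.11. In 0-copy against uninduced cells, 24 rose and 6 fell, where 7.10% of all genes were higher and 6.39% lower, with a median of 0.058. In 2-copy against uninduced cells, 9 rose and 20 fell, with a median of -0.0032. There 12.8% of all genes were higher and 12.1% lower, so the 9 of 96 that rose are a smaller share than that of all genes. These lists were chosen with earlier results of these data known.

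The list of crosslinkers and stress fibre proteins had 8 of 17 lower and 1 higher within the mosaic, against 7.70% and 8.30% of all genes. Pls3, an actin bundler, fell by 0.71 on the log2 scale (adjusted p = 9.37e-07), and the filamin Flnc fell by 0.54 (adjusted p = 5.1e-06). Anln, anillin of the cytokinetic ring, rose, with a log2 of 0.13 (adjusted p = 0.0251). In 0-copy against uninduced cells, 5 rose and 1 fell, where 7.10% of all genes rose and 6.39% fell. Among those that rose were Lasp1 (log2 0.34, adjusted p = 4.56e-08) and Fhl1 (log2 0.49, adjusted p = 2.25e-05), and Anln fell (log2 -0.19, adjusted p = 0.00126). In 2-copy against uninduced cells 1 rose, Lasp1 (log2 0.12, adjusted p = 0.0196), and 4 fell, where 12.8% of all genes rose and 12.1% fell.

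Of 18 monomer-binding, capping and severing genes, 8 fell and 0 rose within the mosaic, against 7.70% and 8.30% of all genes. Tmsb4x, which sequesters monomers, fell by 0.39 on the log2 scale (adjusted p = 1.11e-07), and Enah, which elongates filaments, fell by 0.21 (adjusted p = 0.000192). Enah was also lower in 2-copy than in uninduced cells (log2 -0.30, adjusted p = 2.57e-07). In that comparison 4 of the list fell and 0 rose, where 12.1% of all genes fell and 12.8% rose. In 0-copy against uninduced cells 5 rose and 0 fell, where 7.10% of all genes rose and 6.39% fell.

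Among 15 focal adhesion and cortex genes, 5 fell and 0 rose within the mosaic, against 7.70% and 8.30% of all genes. The cortical spectrin Sptan1 fell by 0.33 on the log2 scale (adjusted p = 2.35e-06) and the adhesion scaffold Bcar1 by 0.37 (adjusted p = 5.08e-05). Tns3, a tensin, was higher than uninduced in 0-copy cells (log2 0.36, adjusted p = 5.9e-06) and in 2-copy cells (log2 0.26, adjusted p = 0.00019). Against uninduced cells 5 of the list rose and 1 fell in 0-copy cells, where 7.10% of all genes rose and 6.39% fell. In 2-copy cells 2 rose and 4 fell, where 12.8% of all genes rose and 12.1% fell. The 2 of 15 that rose there are near the share of all genes.

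In the list of immediate early and other SRF targets, 9 of 12 genes were tested. Within the mosaic 3 fell and 0 rose, against 7.70% and 8.30% of all genes, among them the matricellular genes Ccn1 (log2 -0.66, adjusted p = 5.36e-05) and Ccn2 (log2 -0.31, adjusted p = 0.00109). In 0-copy against uninduced cells 4 rose and 0 fell, where 7.10% of all genes rose and 6.39% fell. Among those 4, Ccn1 had a log2 of 0.79 (adjusted p = 2.02e-06) and Ccn2 0.51 (adjusted p = 5.32e-07). In 2-copy against uninduced cells 2 rose and 0 fell, where 12.8% of all genes rose and 12.1% fell. Ccn1 and Ccn2 are also known targets of YAP.

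Of 20 genes for Arp2/3 and nucleation, 2 fell within the mosaic, the complex subunits Arpc1b (log2 -0.28, adjusted p = 0.000694) and Arpc5 (log2 -0.25, adjusted p = 0.00243). That share is near the 7.70% of all genes that were lower. Against uninduced cells 3 of the list rose and 0 fell in 0-copy cells, where 7.10% of all genes rose and 6.39% fell. In 2-copy cells 3 rose and 1 fell, where 12.8% of all genes rose and 12.1% fell. The 3 of 20 that rose there are near the share of all genes.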

How the data were processed

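RNA from 9 libraries was read single-end (75 bp), per the labels' protocols. The authors deposited expected counts per gene, estimated with RSEM 1.17 on GRCm38 (annotation release 84), as the submitters' processing notes and column names state. The notes also list cutadapt, Picard and limma with no role, and no source used here names the aligner. Expected counts split reads that fit several genes. The counts were rounded and filtered (filterByExpr of edgeR 4.0.16 in R 4.3.3), which kept 13424 of 35771 rows. Levels are TMM-scaled CPM, counts scaled to a common library total. Groups were compared in 1 edgeR quasi-likelihood fit (robust, all 9 libraries), and p-values were adjusted by Benjamini-Hochberg over the 13424 genes. A call is an adjusted p below 0.05. The standard error is the absolute log2 change over the root of F. The procedure was tested on simulated data. Alternatives used DESeq2 1.42.0, voom of limma 3.58.1, other scaling and filters, an offset over transcript length, a block on replicate numbers and fits without each library. Names, coordinates and exonic lengths came from GENCODE M21 (GRCm38), which names 35432 rows. Promoter windows came from RefSeq (GRCm38.p6).

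The members and lists were chosen with earlier results of these data known. Values per library are given for the 14 called members with the largest absolute log2 change in any comparison and a mean of at least 10 CPM in some group, and for Srf, Mrtfa, Mrtfb, Actb and Actg1. From each list of other actin genes, at most 2 genes per direction and comparison, those with the smallest p, could be named. One list among these is not reported here by gene.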

Additional observations from a re-analysis of the deposited data

How the results depend on the processing

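The counts of members were recomputed for each comparison under 11 other settings and without each library in turn. The 2-copy against uninduced cells gave 6 members that rose and 9 that fell, and DESeq2 gave 3 and 4. Within the mosaic 22 fell, and 17 with DESeq2. In 0-copy against uninduced cells 21 rose, and 15 with DESeq2. Leaving out 1 library gave 2 to 6 that rose and 5 to 9 that fell in 2-copy against uninduced cells. Within the mosaic it gave 18 to 22 that fell and 0 that rose, and in 0-copy against uninduced cells 14 to 22 that rose and 1 that fell. Over all genes DESeq2 called 643 higher and 418 lower within the mosaic (edgeR 1114 and 1034), 1088 and 801 for 2-copy against uninduced cells (1721 and 1629), and 399 and 407 for 0-copy against uninduced cells (953 and 858). The cause was not tested.

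Changes of sign were near 0. With the length offset, alone or with the replicate block, Actb in 0-copy against uninduced cells went to -0.0053 and -0.0055, Mrtfb in 2-copy against uninduced cells to 0.0041 and 0.0018, and Myh9 in that comparison to 0.0064 and 0.0055. With library size alone Mrtfa within the mosaic went to -0.012, and without replicate 1 of the 0-copy cells to -0.019 (its leave-one-out values reached 0.067). Without replicate 1 of the 2-copy cells, Actb against uninduced was 0.0088 (lowest when leaving out 1 library -0.053) and Actg1 within the mosaic 0.0087 (lowest -0.049). Srf within the mosaic was 0.0025 without replicate 2 of the 0-copy cells (lowest -0.16), and Tpm2 in 2-copy against uninduced cells was -0.012 without replicate 2 of those cells (highest 0.11). The cause was not tested.

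The replicate numbers did not pair the libraries (same-number correlations -0.081 to 0.081). With the replicate block, 22 members fell within the mosaic, 6 rose and 9 fell in 2-copy against uninduced cells, and 22 rose and 1 fell in 0-copy against uninduced cells. Few counts limit Cnn1, Myl9 and Acta2.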
